A study of Homo sapiens with 6 samples.

Results

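Cholesterol and fatty acid synthesis in SiHa cells that overexpress BRCA1 is described here through 33 genes, taken by symbol from the 58174 genes in the deposited expression table. They comprise 5 regulators of both routes, 19 genes of the sterol arm and 9 genes of the fatty acid arm. The study asked which transcripts differ when BRCA1, a DNA repair protein, is overexpressed in a cervical squamous cell carcinoma line. Both groups were SiHa cells grown in DMEM with 10% fetal bovine serum and lipofected 48 h before harvest, the OV-BRCA1 group (n = 3) with a GV230-BRCA1 plasmid and the NC group (n = 3) with the empty GV230 plasmid. The study describes 3 biological replicates in each group, and the design holds no cells without transfection. Total RNA from TRIzol went into mRNA libraries, and the deposited values are FPKM per transcript, that is fragments per kilobase of transcript scaled to the fragments of the sample, summed here per gene.

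Cells make cholesterol from acetyl-CoA by way of mevalonate, farnesyl diphosphate, squalene and lanosterol, and they make fatty acids from the same precursor by carboxylation, chain synthesis, elongation and desaturation. The membrane-bound transcription factors encoded by SREBF1 and SREBF2 switch on genes of both arms after the SCAP protein has escorted them from the endoplasmic reticulum to the Golgi, where proteases release their active part. When sterols are plentiful, the INSIG proteins hold SCAP and its cargo in the endoplasmic reticulum.

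The expression profile was that of an epithelial line. Of 15 epithelial markers, 11 passed the filter on low values (0.5 FPKM or more in 3 or more samples). The 15 together summed to 3663, 3477 and 3548 FPKM in the OV-BRCA1 group (replicates 1, 2 and 3, an order kept throughout) and to 4003, 3990 and 3984 in the NC group, with KRT7 the most abundant. Among them 6 rose and 1 fell at an adjusted p below 0.05 (16.4% and 18.9% of all genes tested by limma), with a median log2 fold change of 0.27. KRT6A, 1 of the 6 and named after its values were seen, reached the filter's level in the OV-BRCA1 group alone (1.09 ± 0.106 against 0.173 ± 0.126 FPKM), so that a test of it could hardly show a fall, and without it 5 rose and the median was 0.24. KRT17, the gene that fell, averaged 1033 ± 90.3 FPKM in OV-BRCA1 cells and 1434 ± 8.67 in NC cells (SD, n = 3) and was named after its values were seen. LAMB3 (27.5 ± 1.35 against 13.5 ± 0.843 FPKM), KRT18 (251.8 ± 3.87 against 191.7 ± 6.05) and EPCAM (6.79 ± 0.860 against 2.59 ± 0.457) had the smallest adjusted p among the markers called. With its most abundant transcript alone LAMB3 was at 0.63 and not called. The adhesion gene CDH1 averaged 0.726 against 0.435 FPKM. The squamous basal markers KRT5, KRT14 and TP63 lay near 0, with means of 0.0863, 0.615 and 0.262 FPKM in the OV-BRCA1 group and of 0.0331, 0.208 and 0.0289 in the NC group. PTPRC of leukocytes, LUM of fibroblasts, VWF of endothelium, ADIPOQ of adipocytes and TTR of hepatocytes were at 0 in all 6 samples. The fibroblast list (4 genes) had 0 genes past the filter, and the endothelial list (3 genes) and the adipocyte or hepatocyte list (5 genes) had 1 each, PECAM1 (1.02 ± 0.380 against 0.703 ± 0.0801 FPKM) and PLIN1 (0.386 ± 0.0974 against 0.712 ± 0.187, past the filter through the NC group alone), neither of them called. APOA1 and COL3A1 read above 0 and did not pass the filter. CD14, listed among 5 leukocyte markers of which the other 4 did not pass the filter, measured 9.04, 6.65 and 7.69 FPKM in the OV-BRCA1 samples and 20.4, 17.8 and 19.9 in the NC samples. It was called lower, with a log2 fold change of -1.22 (limma adjusted p = 5.94e-04). The part of these markers in the results below was not tested. In a culture of this kind, fewer cells of a type and less RNA per cell cannot be told apart.

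The expression files give FPKM without fragment counts. The spacing of low FPKM values pointed to about 15.67, 16.18 and 13.71 M fragments in the OV-BRCA1 samples and 15.67, 18.28 and 19.19 M in the NC samples, an approximate figure since only 33.3% to 37.1% of low values then fell within 0.1 of a whole fragment. On that scale TM7SF2, the member with the lowest level among those that passed the filter, rested on 45.3 to 125 fragments per sample, and SCD, the highest, on 14000 to 41100.

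BRCA1, the transfected gene, measured 35.7, 40.8 and 34.9 FPKM in the OV-BRCA1 samples and 20.1, 14.9 and 21.7 in the NC samples. All 3 OV-BRCA1 samples lay above all 3 NC samples, and the mean rose from 18.9 ± 3.56 to 37.1 ± 3.18 FPKM (SD, n = 3 per group). On the scale used throughout, log2 of FPKM + 1, the difference was 0.95 with a 95% interval of 0.61 to 1.30 (limma adjusted p = 0.00373). This scale understates fold changes of genes with low FPKM. The glycolytic reference gene GAPDH averaged 2896 ± 95.1 against 2832 ± 72.0 FPKM, and TBP, the TATA-box binding protein, 15.2 ± 1.58 against 14.6 ± 1.29, neither of them called. The actin gene ACTB, the other reference gene, averaged 2454 ± 174 against 2020 ± 173 FPKM and rose by 0.28 (adjusted p = 0.036). Without OV-BRCA1 replicate 2 or 3 ACTB was at 0.26 and 0.25, and without NC replicate 1 or 3 at 0.25 and 0.24, none of them called, with adjusted p from 0.0195 to 0.559 over the alternatives. It reversed to -1.70 with its most abundant transcript.

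Of the 33 genes, 32 passed the filter. The exception, STARD4, a sterol carrier listed with the sterol arm, read 0.0435 FPKM in OV-BRCA1 sample 1 and 0 in the other 5. At an adjusted p below 0.05 limma called 16 members lower in OV-BRCA1 cells, where 18.9% of the 16321 genes tested were called lower, and 5 members higher, where the share of all genes was 16.4%. The remaining 11 were not called. Past 1 on the log2 scale as well, 3 members were lower (SREBF1, MVD and SCD; 1.10% of all genes) and 0 higher in limma (2.89% of all genes), with 0 higher past 1 at an unadjusted p below 0.05 too. The median log2 fold change was -0.31 over the regulators, -0.24 over the sterol arm and -0.19 over the fatty acid arm, beside -0.04 over all genes tested.

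The summed FPKM of each arm gives the same data as levels. The sterol arm summed to 814.5, 809.2 and 841.0 FPKM with BRCA1 overexpression, against 1046, 1053 and 1097 in the NC group, a mean lower by 22.9%. The fatty acid arm summed to 420.5, 420.2 and 431.5 against 675.5, 660.4 and 671.7, a mean lower by 36.6%. Neither sum overlapped between the groups. A single gene, SCD, made up 59.5% of the fatty acid sum in NC cells and 86.1% of the difference between the groups. Without SCD the fatty acid arm averaged 237.3 ± 3.88 FPKM in OV-BRCA1 cells and 271.3 ± 5.72 in NC cells. The sterol sum was spread more evenly, with its most abundant gene, FDPS, at 14.8% of the NC level and 24.6% of the difference. HMGCS1 (86.3 against 150.9 FPKM) and MVD (61.9 against 125.4) each held a larger part of that difference than FDPS (97.8 against 157.9).

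**Figure D1:**
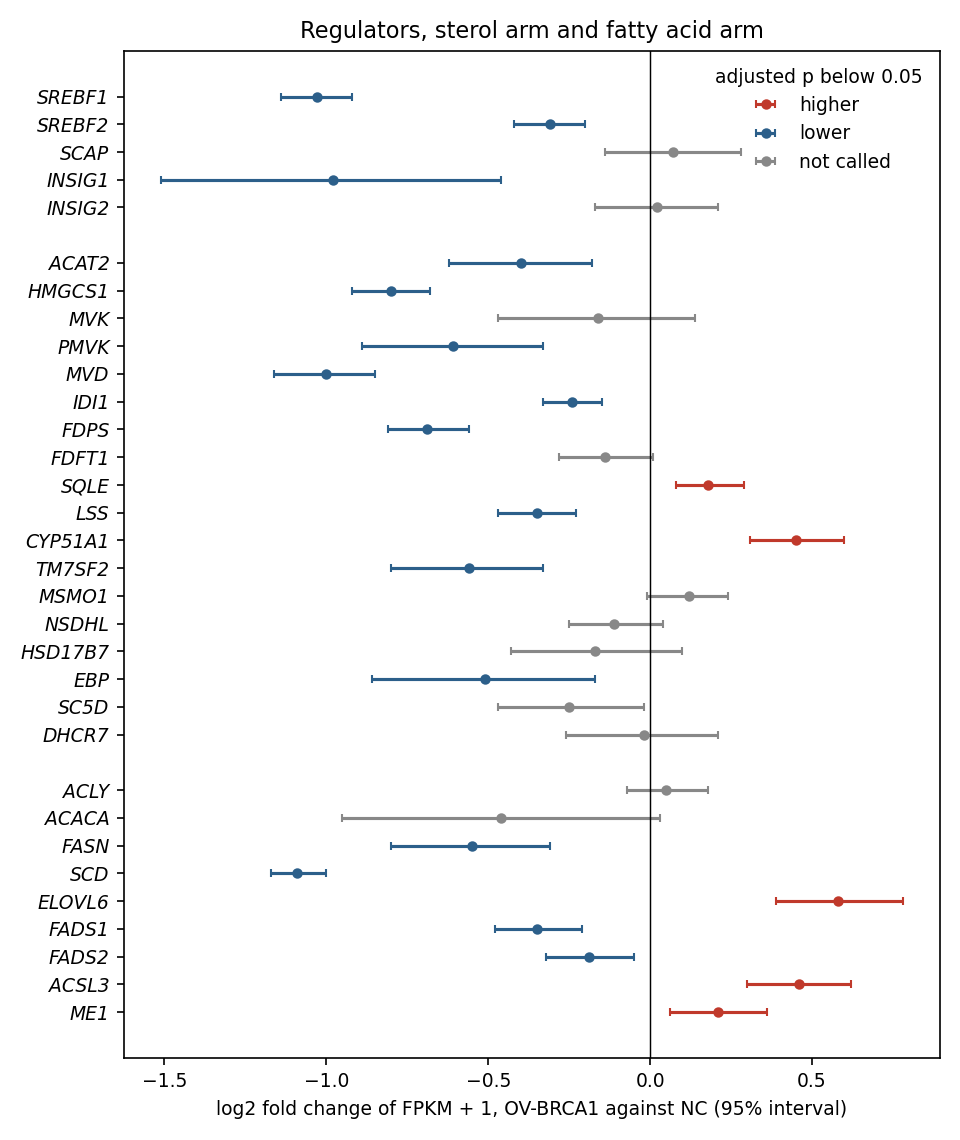
Log2 fold change of FPKM + 1, OV-BRCA1 against NC (n = 3 each), for the 32 genes that passed the filter, from top to bottom the regulators, the sterol arm in pathway order and the fatty acid arm; bars are 95% intervals and colour gives the limma call. The changes run from -1.09 for SCD to 0.58 for ELOVL6, with 16 genes called lower and 5 higher.

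The DNA before the start is shown for 5 members: both transcription factors, HMGCS1 and MVD as the sterol genes with the largest falls by gene sums, and SCD. The part of these sequences in the changes was not tested. Promoter sequences from RefSeq on build GRCh38.p14 matched 29 of the 33 genes, with no entry for ACAT2, SQLE, FDFT1 and FASN. The stretches run 5′ to 3′ on the gene's own strand and end at the base before the outermost start of the gene in GENCODE 29. Capitals mark the CCAAT box (CCAAT, or ATTGG on the opposite strand), to which the factor NF-Y binds, and the sterol regulatory element (TCACNCCAC), to which the SREBP factors bind. They lie at chr17:17837003-17837236 (minus strand) for SREBF1, chr22:41832855-41833078 (plus strand) for SREBF2, chr5:43313513-43313662 (minus strand) for HMGCS1, chr16:88663162-88663341 (minus strand) for MVD and chr10:100346983-100347123 (plus strand) for SCD.
SREBF1: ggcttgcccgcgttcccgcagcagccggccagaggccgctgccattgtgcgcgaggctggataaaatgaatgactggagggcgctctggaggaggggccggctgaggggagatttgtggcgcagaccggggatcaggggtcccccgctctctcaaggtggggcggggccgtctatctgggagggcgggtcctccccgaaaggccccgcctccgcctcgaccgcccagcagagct
SREBF2: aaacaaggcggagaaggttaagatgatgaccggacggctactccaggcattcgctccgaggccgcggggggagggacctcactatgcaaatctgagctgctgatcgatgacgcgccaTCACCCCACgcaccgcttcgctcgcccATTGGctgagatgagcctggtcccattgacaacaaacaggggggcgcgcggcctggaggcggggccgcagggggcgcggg
HMGCS1: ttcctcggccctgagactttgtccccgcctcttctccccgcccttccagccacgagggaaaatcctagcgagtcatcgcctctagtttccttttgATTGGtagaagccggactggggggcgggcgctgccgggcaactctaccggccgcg
MVD: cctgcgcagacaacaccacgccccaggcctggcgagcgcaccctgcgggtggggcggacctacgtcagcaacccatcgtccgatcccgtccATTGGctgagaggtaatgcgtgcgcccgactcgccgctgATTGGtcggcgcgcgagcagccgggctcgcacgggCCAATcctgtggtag
SCD: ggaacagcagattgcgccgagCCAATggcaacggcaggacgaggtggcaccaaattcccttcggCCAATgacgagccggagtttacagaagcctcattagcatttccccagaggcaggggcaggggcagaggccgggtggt

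MVD carried 3 CCAAT boxes in its printed stretch, SCD 2, HMGCS1 and SREBF2 1 each, and SREBF1 0. These printed genes all fell as gene sums. The like stretch of ACSL3, a gene that rose, is not shown and held 0 CCAAT boxes. The longer window of ACSL3, searched as described next, held 1. The search for motifs, on both strands, covered the 250 bases before 1 RefSeq start per gene, the first listed. The 29 members had 39 such windows, and those of further starts were not searched. In 26 of the 29 members the window searched reached past the outermost GENCODE 29 start into the gene, so that it holds bases not printed above. There a CCAAT box was found in 13 of the 16 sterol genes with an entry (81.2%), in 3 of 8 fatty acid genes, in 2 of 5 regulators and in 33.04% of all 27305 promoters. More than 1 box was found in 9 of the 16 sterol promoters and in 10.03% of all promoters. They were MVK and NSDHL (5 boxes each), MSMO1 (4), EBP, FDPS and MVD (3 each) and HMGCS1, DHCR7 and STARD4 (2 each), of which MVK, NSDHL, MSMO1 and DHCR7 were not called as gene sums. The sterol genes CYP51A1, IDI1 and PMVK held no CCAAT box. In the windows searched, the letters TCACNCCAC were found in SREBF2 alone among the 29 members and in 0.88% of all promoters. The E-box CACGTG was found in INSIG1, SCAP and SC5D (6.49% of all promoters), and the GC box GGGCGG in 27 of the 29 members (42.31% of all promoters). A match is a description of the letters, and its absence says only that these letters are not in the window.

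Among the regulators, 3 of 5 fell (18.9% of all genes tested) and limma called 0 higher (16.4% of all genes tested), with 0 also at an unadjusted p below 0.05. Over protein-coding transcripts only, 1 regulator fell, INSIG1 (13.4% of 11862 genes so tested). SREBF1, the transcription factor tied most closely to fatty acid genes, measured 35.4, 36.3 and 34.4 FPKM in the OV-BRCA1 samples and 75.1, 72.4 and 72.2 in the NC samples. The groups were far apart and each was tight, with means of 35.4 ± 0.98 and 73.2 ± 1.64 (SD, n = 3). The gene fell by 1.03 on the log2 scale (95% interval -1.14 to -0.92, limma adjusted p = 3.36e-05). Over its protein-coding transcripts only SREBF1 was at -0.02 and not called (limma adjusted p = 0.928). SREBF2, the factor tied most closely to sterol genes, measured 24.5, 24.8 and 24.9 FPKM against 30.8, 30.8 and 31.0. Its groups did not overlap either, and the fall was smaller, at 0.31 (95% interval -0.42 to -0.20, adjusted p = 0.00343). Over its protein-coding transcripts only SREBF2 was at -0.16 (limma adjusted p = 0.121), and with its most abundant transcript alone at 0.01, neither of them called.

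INSIG1, which retains SCAP in the endoplasmic reticulum and is itself a target of the SREBP factors, measured 36.6, 28.2 and 54.5 FPKM in the OV-BRCA1 samples and 78.1, 76.0 and 76.2 in the NC samples. The OV-BRCA1 samples lay below the NC samples but spread widely (SD 13.5 against 1.14). INSIG1 fell by 0.98 (95% interval -1.51 to -0.46, adjusted p = 0.0158). Without OV-BRCA1 replicate 1 the value was -0.95 at an adjusted p of 0.0503, and over all alternative settings the adjusted p ran from 0.00242 to 0.0572. INSIG2, its paralogue, was low, at 6.13, 5.44 and 5.57 FPKM against 5.71, 5.31 and 5.82, and its groups overlapped (log2 fold change 0.02, adjusted p = 0.86). SCAP measured 26.4, 26.1 and 21.7 FPKM against 24.0, 22.6 and 23.6, also with overlap (0.07, adjusted p = 0.555).

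**Figure D2:**
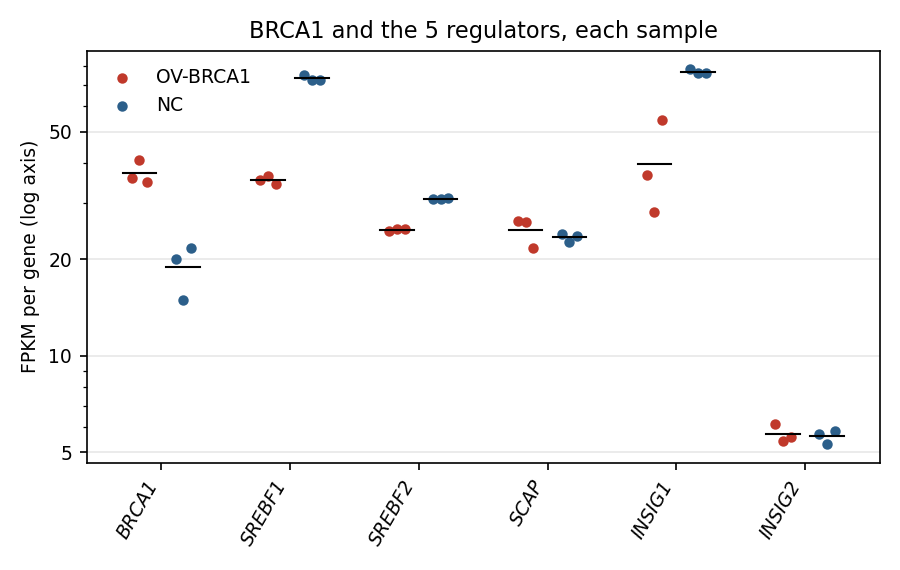
FPKM per gene (log axis) of BRCA1 and the 5 regulators in each sample, with OV-BRCA1 in red, NC in blue and bars at the group means. SREBF1, SREBF2 and INSIG1 lie lower in all 3 OV-BRCA1 samples, INSIG1 with a wide spread, while SCAP and INSIG2 overlap.

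In the sterol arm 9 of the 18 genes that passed the filter fell and 2 rose (18.9% and 16.4% of all genes tested). The early steps, from acetyl-CoA to farnesyl diphosphate, held most of the falls. ACAT2, the cytosolic thiolase that joins acetyl-CoA units, measured 13.5, 15.1 and 12.3 FPKM in the OV-BRCA1 samples and 17.2, 18.2 and 19.7 in the NC samples. All OV-BRCA1 values lay below the NC values, and ACAT2 fell by 0.40 (adjusted p = 0.0165). Without NC replicate 3 it was -0.36 at an adjusted p of 0.0533, within a range of 0.0138 to 0.0533 over the alternatives. On the opposite strand ACAT2 shares 397 exon bases with TCP1, a gene at 108.3 FPKM, and 1458 and 1141 with SOD2-OT1 and SOD2, whose identifiers there have no value in the files. The part of these overlaps was not tested.

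HMGCS1, the cytosolic HMG-CoA synthase, measured 82.8, 86.5 and 89.7 FPKM in the OV-BRCA1 samples and 145.9, 150.4 and 156.3 in the NC samples. Every OV-BRCA1 value lay far below every NC value, and the gene fell by 0.80 (95% interval -0.92 to -0.68, adjusted p = 1.30e-04). The mevalonate kinase MVK was not called and its groups overlapped, at 8.96 ± 1.56 against 10.1 ± 0.847 FPKM. PMVK, which adds the next phosphate to mevalonate, measured 8.57, 6.39 and 7.64 FPKM against 10.8, 12.7 and 12.4. The groups were apart, and PMVK fell by 0.61 (95% interval -0.89 to -0.33, adjusted p = 0.00889).

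MVD, the decarboxylase that makes isopentenyl diphosphate, measured 59.98, 64.07 and 61.78 FPKM in the OV-BRCA1 samples and 126.9, 115.5 and 133.9 in the NC samples. By gene sums it was the sterol gene with the largest fall, 1.0 on the log2 scale (SE 0.066, adjusted p = 1.48e-04), and its mean was lower by 50.6%. Over protein-coding transcripts only HMGCS1 fell more, at -1.39 against -1.29 for MVD, which was then not called (limma adjusted p = 0.176). HMGCS1 also fell more with a trend against GC content and length removed, at -0.90 against -0.80. IDI1, the isomerase of the next step, averaged 110.5 ± 0.902 against 130.8 ± 2.0 FPKM and fell by 0.24 (adjusted p = 0.00456). FDPS, which makes farnesyl diphosphate, measured 98.9, 93.0 and 101.5 FPKM against 156.8, 153.6 and 163.2. Its groups stood well apart, with a fall of 0.69 (95% interval -0.81 to -0.56, adjusted p = 2.44e-04).

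From squalene onward the directions were mixed. FDFT1, the squalene synthase, averaged 89.1 ± 6.02 against 97.9 ± 2.30 FPKM and was not called (-0.14, adjusted p = 0.125), although without OV-BRCA1 replicate 3 it was called at -0.19 (adjusted p = 0.041, range over the alternatives 0.041 to 0.637). SQLE, the squalene epoxidase, averaged 39.8 ± 0.217 against 35.0 ± 0.224 FPKM and rose by 0.18 (adjusted p = 0.0204). That call was lost without any single replicate, at adjusted p from 0.0501 to 0.059 and values from 0.18 to 0.19. LSS, which closes the ring to lanosterol, averaged 26.3 ± 0.389 against 33.7 ± 1.04 FPKM and fell by 0.35 (adjusted p = 0.00312). Over its protein-coding transcripts only LSS was at 0.09 and not called (limma adjusted p = 0.384).

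CYP51A1, the lanosterol demethylase, was the sterol gene with the largest rise. It measured 40.3, 39.6 and 39.1 FPKM in the OV-BRCA1 samples and 27.1, 28.5 and 30.7 in the NC samples. The groups did not overlap, and the gene rose by 0.45 (95% interval 0.31 to 0.60, adjusted p = 0.00236). CYP51A1 shares 2844 exon bases with AC000120.2 on the same strand, and its values here include a transcript that carries the name of that gene in GENCODE 29 and stands under CYP51A1 in the files (1.7% of the sum). The part of the overlap was not tested. TM7SF2, a sterol reductase of low level, measured 2.97, 2.67 and 2.89 FPKM against 4.21, 4.55 and 5.30. All its OV-BRCA1 values were below the NC values, and it fell by 0.56 (95% interval -0.80 to -0.33, adjusted p = 0.00632).

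The late steps were mostly not called. EBP, the sterol isomerase, measured 42.3, 43.0 and 43.0 FPKM in the OV-BRCA1 samples and 48.8, 64.6 and 73.7 in the NC samples. The groups were apart but the NC samples spread widely, and EBP fell by 0.51 (95% interval -0.86 to -0.17, adjusted p = 0.0341). The call was lost without OV-BRCA1 replicate 1, 2 or 3 (-0.51, -0.52 and -0.52) and without NC replicate 2 or 3 (-0.48 and -0.38), with adjusted p from 0.00334 to 0.124 over the alternatives. MSMO1 (0.12), NSDHL (-0.11), HSD17B7 (-0.17), SC5D (-0.25) and DHCR7 (-0.02), which remove methyl groups from or set the double bonds of the sterol, had adjusted p values from 0.0843 to 0.878. SC5D came nearest to a call, and without NC replicate 3 it was called at -0.33 (adjusted p = 0.0283, range over the alternatives 0.0226 to 0.59). A p that misses the threshold does not show that these levels were the same.

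**Figure D3:**
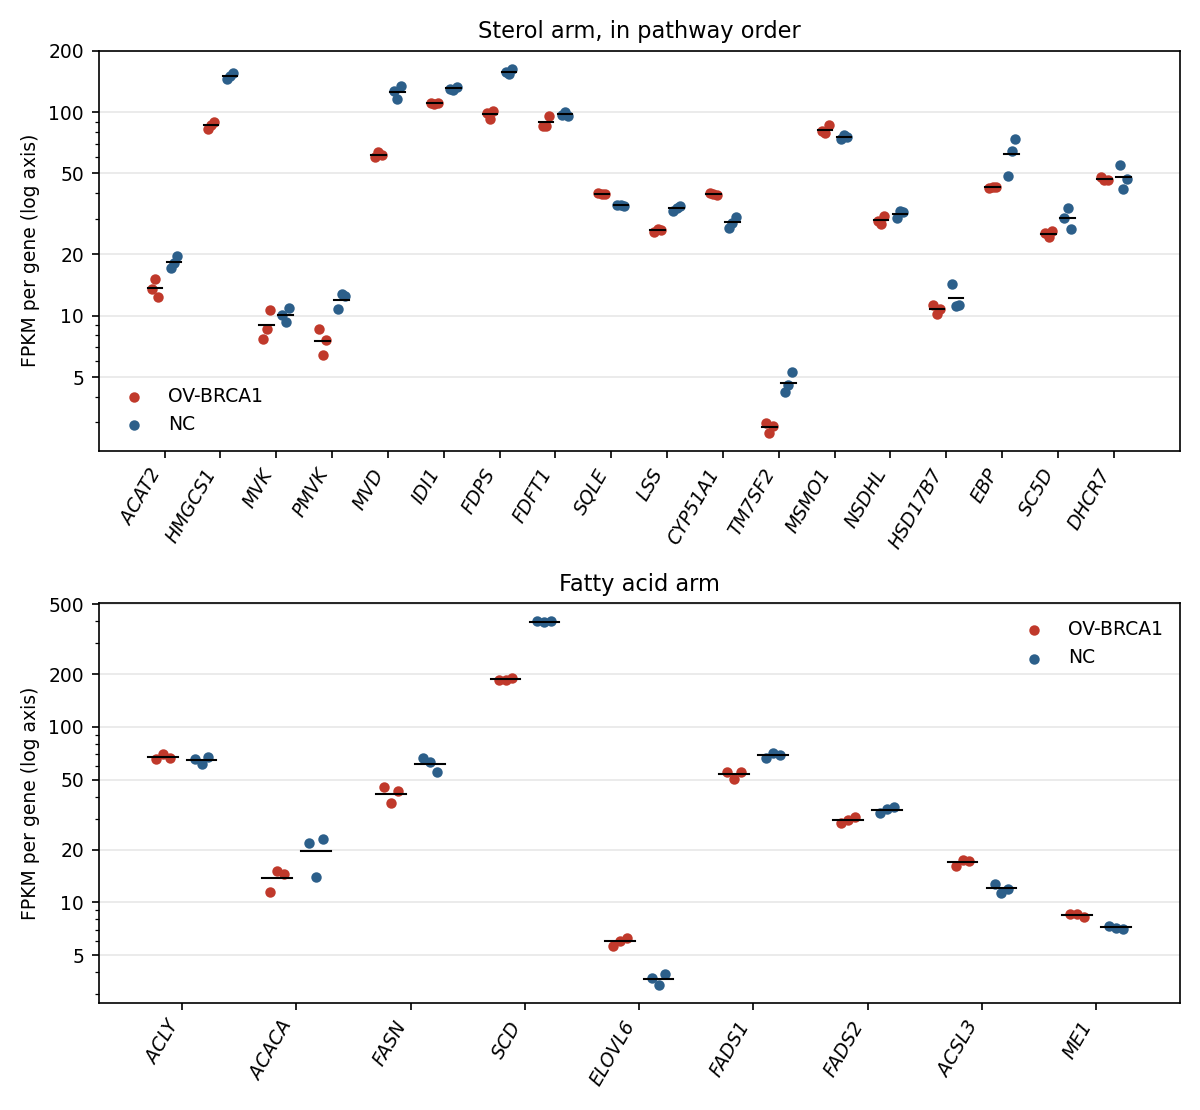
FPKM per gene (log axis) in each sample for the 18 sterol genes that passed the filter, in pathway order, and for the 9 fatty acid genes, with OV-BRCA1 in red, NC in blue and bars at the group means. HMGCS1, MVD, FDPS and SCD lie clearly lower in OV-BRCA1 cells, and CYP51A1, ELOVL6 and ACSL3 higher.

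In the fatty acid arm 4 of 9 genes fell and 3 rose (18.9% and 16.4% of all genes tested). ACLY, which supplies cytosolic acetyl-CoA from citrate, averaged 67.1 ± 2.35 against 64.6 ± 2.71 FPKM with overlapping groups (0.05, adjusted p = 0.471). ACACA, the carboxylase that makes malonyl-CoA, measured 11.5, 15.2 and 14.6 FPKM in the OV-BRCA1 samples and 21.9, 13.9 and 22.9 in the NC samples. NC sample 2 lay among the OV-BRCA1 samples, and ACACA was not called (-0.46, adjusted p = 0.126). Without NC replicate 2 it was called at -0.68 (adjusted p = 0.0176, the lowest of its alternatives).

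FASN, the fatty acid synthase, measured 45.4, 36.8 and 42.9 FPKM against 66.8, 62.9 and 55.3. The groups were apart, and FASN fell by 0.55 (95% interval -0.80 to -0.31, adjusted p = 0.00816). SCD, the desaturase that makes monounsaturated fatty acids, measured 184.5, 186.0 and 189.8 FPKM in the OV-BRCA1 samples and 399.2, 395.3 and 399.2 in the NC samples. The spread within each group was small beside the difference (SD 2.73 and 2.25, n = 3), and SCD fell by 1.09 (SE 0.035, adjusted p = 9.38e-06). It ranked 67 by p among the 16321 genes tested, the first of the members. SCD has 1 annotated transcript, at chr10:100347124-100364834.

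The desaturases FADS1 and FADS2, which act on polyunsaturated chains, also fell. FADS1 averaged 53.8 ± 2.60 against 68.8 ± 2.29 FPKM (-0.35, adjusted p = 0.00461). FADS2 averaged 29.5 ± 1.19 against 33.8 ± 1.18 FPKM (-0.19, adjusted p = 0.0408), and that call was lost without any single replicate, at values from -0.22 to -0.16 and adjusted p from 0.0536 to 0.114. The 2 neighbours share 490 exon bases on opposite strands, and the part of that overlap was not tested.

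ELOVL6, the elongase of saturated and monounsaturated chains, moved the other way from SCD. It measured 5.64, 6.05 and 6.31 FPKM in the OV-BRCA1 samples and 3.73, 3.39 and 3.90 in the NC samples. The groups did not overlap, and ELOVL6 rose by 0.58 (95% interval 0.39 to 0.78, adjusted p = 0.00291). ACSL3, which activates fatty acids to their CoA esters, measured 16.2, 17.4 and 17.2 FPKM against 12.7, 11.4 and 12.0. Again the groups were apart, with a rise of 0.46 (95% interval 0.30 to 0.62, adjusted p = 0.00334). ME1, the cytosolic malic enzyme that supplies NADPH, averaged 8.48 ± 0.196 against 7.21 ± 0.111 FPKM (0.21, adjusted p = 0.0408), and its call was lost without any single replicate, at values from 0.20 to 0.23 and adjusted p from 0.0705 to 0.106.

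Gene sums mix transcripts that encode protein with transcripts annotated as retaining an intron or as targets of nonsense-mediated decay, and for several members the classes moved apart. SREBF1 is the clearest case. Its protein-coding transcripts summed to 18.45, 14.13 and 18.22 FPKM in the OV-BRCA1 group, against 20.46, 16.2 and 15.04 in the NC group. These sums overlapped, with a log2 fold change of -0.02 (95% interval -0.40 to 0.36, adjusted p = 0.928, range over the alternatives 3.93e-05 to 0.928). Its nonsense-mediated decay transcripts summed to 8.56, 14.1 and 7.25 FPKM against 34.2, 36.2 and 39.4, and its retained-intron transcripts to 8.33, 8.09 and 8.91 against 20.2, 19.9 and 17.5. The fall of the SREBF1 sum lay in transcripts annotated as not coding for the full protein. The most abundant of them, SREBF1-204, fell by 2.33 (4.39 ± 3.47 against 22.8 ± 1.42 FPKM, adjusted p = 0.0436). The split varied within the OV-BRCA1 group. In sample 2 the protein-coding sum was the lowest of that group (14.13 FPKM) and the nonsense-mediated decay sum the highest (14.1 FPKM).

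HMGCS1 showed the reverse. Its protein-coding transcripts averaged 42.0 ± 1.89 FPKM in OV-BRCA1 cells and 111 ± 3.15 in NC cells, a fall of 1.39 (adjusted p = 4.10e-05), larger than that of the gene sum. Its most abundant transcript measured 11.2, 14.4 and 18.3 FPKM against 72.8, 76.2 and 76.7 and fell by 2.31 (adjusted p = 0.00273). The retained-intron transcript HMGCS1-207 rose by 0.71, from 11.0 ± 1.58 to 18.6 ± 0.869 FPKM (adjusted p = 0.0361).

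For LSS the retained-intron transcript LSS-208 held 66.9% of the gene's FPKM and fell by 0.60, to 15.8 ± 0.713 from 24.4 ± 0.839 FPKM (adjusted p = 0.0172). The protein-coding transcripts of LSS averaged 8.23 ± 0.314 against 7.68 ± 0.457 FPKM, with a value of opposite sign (0.09, adjusted p = 0.384, range over the alternatives of LSS 0.00241 to 0.384). FADS2 was alike, with protein-coding transcripts at 23.1 ± 1.17 against 23.3 ± 1.42 FPKM (-0.01, adjusted p = 0.95) and its retained-intron transcript FADS2-213 at 5.21 ± 0.410 against 9.21 ± 0.570 (-0.72, adjusted p = 0.0258). In FDPS both kinds were lower, the protein-coding ones at 48.5 ± 2.02 against 67.7 ± 1.92 FPKM (-0.47, adjusted p = 0.00151). For MVD the split was unstable between samples, with protein-coding transcripts at 13.9, 45.4 and 17.4 FPKM against 79.94, 25.97 and 84.26, while the sum over all MVD transcripts was steady.

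**Figure D4:**
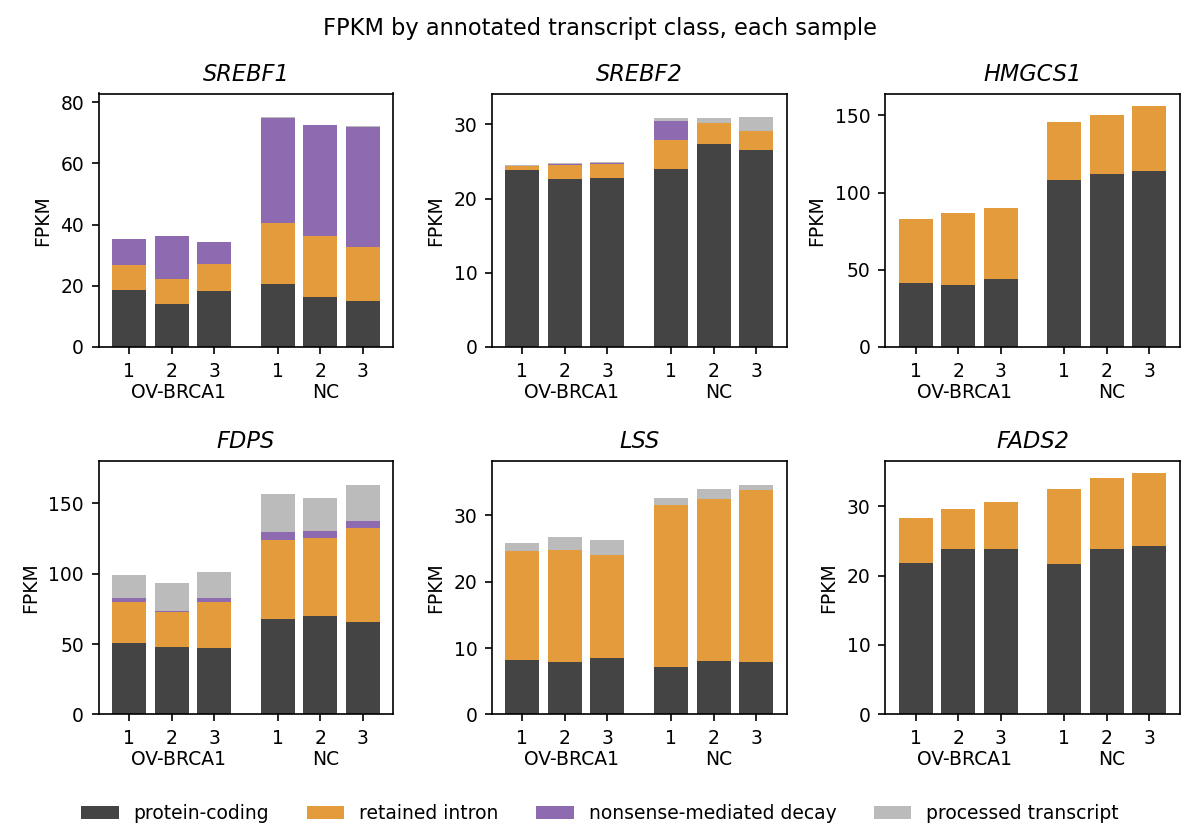
FPKM by annotated transcript class, stacked for each sample, for SREBF1, SREBF2, HMGCS1, FDPS, LSS and FADS2. The protein-coding part of SREBF1 overlaps between the groups (14.13 to 18.45 against 15.04 to 20.46 FPKM), while that of HMGCS1 lies lower in all 3 OV-BRCA1 samples.

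Counted over protein-coding transcripts only, 9 members were called lower (13.4% of 11862 genes so tested) and 5 higher (17.7%). They were INSIG1 among the regulators, ACAT2, HMGCS1, PMVK, IDI1 and FDPS in the sterol arm and FASN, SCD and FADS1 in the fatty acid arm for the falls, and CYP51A1, SQLE, ELOVL6, ACSL3 and ME1 for the rises. Against the gene sums, SREBF1, SREBF2 (-0.16), MVD (-1.29), LSS, TM7SF2 (-0.91), EBP (-0.42) and FADS2 lost the call. With only the most abundant transcript of each gene, SREBF2 (0.01), INSIG1 (-1.16), MVD (-1.37), IDI1 (-0.10), EBP (-0.59), FADS2 (-0.28), ELOVL6 (0.53), ACSL3 (0.28) and ME1 (0.21) were not called, TM7SF2 gave no value and DHCR7 was called, at 0.37. The medians over protein-coding transcripts were -0.02 over the regulators, -0.12 over the sterol arm and -0.01 over the fatty acid arm, beside 0.03 over all genes. The tests of single transcripts gave fewer calls. Of the members' 192 transcripts tested 20 fell (2.63% of all 50925 transcripts) and 3 rose (2.85%). The members' 109 protein-coding transcripts tested gave 3 falls (2.53% of all such transcripts) and 2 rises (3.84% of all). Both rises lay in the sum of CYP51A1, which holds the transcript AC000120.2-202 (1.07 ± 0.137 against 0.082 ± 0.110 FPKM) beside CYP51A1-201 (36.4 ± 0.924 against 26.9 ± 1.74). The former reached the filter's level in the OV-BRCA1 group alone, which leaves 1 rise without it. Among the members' 48 retained-intron transcripts tested there were 14 falls (3.34% of all such transcripts) and 1 rise (0.881% of all). Of these, 1 fall of SC5D and 1 of SREBF1 belong to transcripts that reached that level in the NC group alone, leaving 12 falls. The members' 16 nonsense-mediated decay transcripts tested gave 2 falls, both of SREBF1 (1.66% of all such transcripts). They gave 0 rises in limma (1.83% of all), with 0 at an unadjusted p below 0.05. Retained-intron transcripts made up 10.25%, 10.56% and 10.14% of the FPKM of all nuclear genes in the OV-BRCA1 samples and 11.79%, 11.84% and 11.67% in the NC samples, and the part of that difference in the members' values was not tested. Over the members alone the share was 13.31%, 11.25% and 13.8% against 13.1%, 15.33% and 13.07%, and the groups overlapped.

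Fold changes over all genes also moved with base composition. Across 16298 genes, which are not independent replicates, the log2 fold change correlated with the GC content of the most abundant transcript at a Pearson r of -0.18 and a Spearman rho of -0.23. Its median was 0.08 and -0.19 in the groups with the lowest and the highest GC content when the genes were split by it into 5 groups of near-equal size. SREBF1 (64.2% GC), MVD (65.6%) and FASN (65.2%) lay in the highest of these groups, and HMGCS1 (40.1%) and ACSL3 (38.1%) in the lowest. With the trend against GC content and length removed, an alternative chosen after seeing the data, SREBF1 was at -0.86, MVD at -0.80, FASN at -0.39, HMGCS1 at -0.90 and SCD at -1.11, all still called. EBP, FADS2 and ME1 were no longer called, at -0.44, -0.07 and 0.11, and SC5D was called, at -0.37. Whether base composition itself had a part in these differences was not tested.

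**Figure D5:**
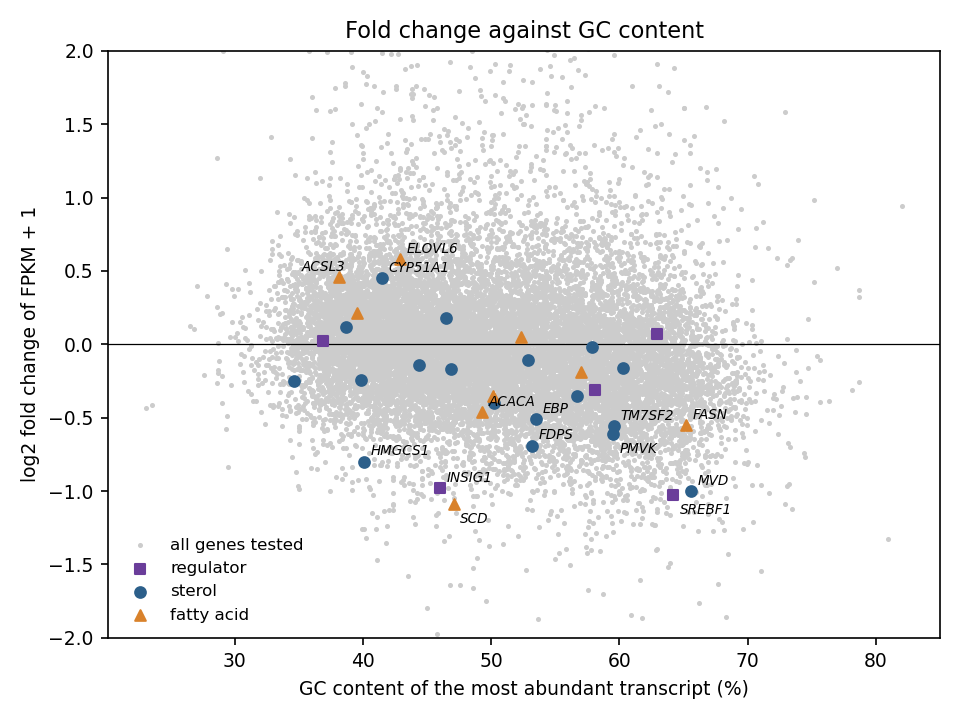
Log2 fold change of FPKM + 1 against the GC content (%) of each gene's most abundant transcript, with all genes tested in grey (133 lie outside the plotted range) and the members by group. SCD and HMGCS1, below 50% GC, and SREBF1 and MVD, above 60%, all lie at -0.80 or lower.

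Another list holds genes that process SREBP factors or govern their decay. Of its 17 genes 4 rose (16.4% of all genes tested) and limma called 0 lower (18.9% of all genes), with 1 lower at an unadjusted p below 0.05, and the median was 0.15. The remaining 13 were not called. SEC24A, a cargo adaptor of the vesicles that leave the endoplasmic reticulum, measured 9.73, 9.40 and 9.67 FPKM in the OV-BRCA1 samples and 4.87, 4.82 and 4.88 in the NC samples. It rose by 0.86 (adjusted p = 2.21e-04), with no overlap. Its paralogue SEC24D rose by 1.30 (12.7 ± 2.44 against 4.52 ± 0.665 FPKM, adjusted p = 0.00163), and MBTPS2, a Golgi protease that releases the factors, by 0.50 (8.41 ± 0.809 against 5.67 ± 0.332 FPKM, adjusted p = 0.00734). The fourth was ERLIN1, named after its values were seen, which rose by 0.39 (adjusted p = 0.00914).

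Among 22 genes of sterol storage, uptake and efflux 8 rose and 4 fell (16.4% and 18.9% of all genes tested), with a median of 0.03. GRAMD1B, which carries cholesterol from the plasma membrane to the endoplasmic reticulum, measured 19.0, 21.8 and 20.0 FPKM against 4.45, 5.09 and 5.47. The groups were far apart, and it rose by 1.83 (adjusted p = 4.87e-05). NPC1 and NPC2, which together export cholesterol from lysosomes, moved in opposite directions. NPC1 rose by 0.59 (70.3 ± 1.72 against 46.2 ± 2.39 FPKM, adjusted p = 5.74e-04), and NPC2 fell by 0.77 (138.6 ± 1.42 against 238.6 ± 26.7 FPKM, adjusted p = 0.00108). The lysosomal lipase LIPA (0.57), the cholesterol acyltransferase SOAT1 (0.46), the cholesteryl ester hydrolase NCEH1 (0.47) and the sterol carrier OSBP (0.53), all named after their values were seen, rose at adjusted p values from 0.00147 to 0.00345. Of the genes that sterol-activated LXR receptors switch on, ABCG1 fell by 0.99 (0.673 ± 0.0759 against 2.36 ± 0.528 FPKM, adjusted p = 0.00208), while ABCA1 (-0.12, adjusted p = 0.306) and MYLIP (-0.04, adjusted p = 0.781) were not called. ABCG1 was named after its values were seen, and over its protein-coding transcripts only it was at -0.06 and not called. With the most abundant transcript alone GRAMD1B (0.91), NPC1 (0.59), NPC2 (-0.38), LIPA (2.14), SOAT1 (0.68) and NCEH1 (2.02) were not called.

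Of 21 other isoprenoid and sterol enzymes 16 passed the filter, and 2 rose and 3 fell, close to the shares of all genes tested (16.4% and 18.9%), with a median of 0.10. ERG28, a scaffold of the sterol demethylation enzymes, fell by 0.33 (44.3 ± 1.11 against 55.8 ± 1.64 FPKM, adjusted p = 0.00333). NUS1, a subunit of the enzyme that makes dolichol precursors, rose by 0.33 (12.5 ± 0.218 against 9.77 ± 0.319 FPKM, adjusted p = 0.00729). HSD3B7, of bile acid synthesis, fell by 0.85 from a low level (0.730 ± 0.324 against 2.10 ± 0.303 FPKM, adjusted p = 0.00848), a call lost with its most abundant transcript alone (-0.96). CH25H, which makes an oxysterol, did not pass the filter, with 0.241, 0.174 and 0.174 FPKM in the OV-BRCA1 samples and 0, 0 and 0.0310 in the NC samples.

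Of 42 other genes of fatty acid and glycerolipid synthesis 39 passed the filter, 8 rose and 11 fell (16.4% and 18.9% of all genes tested), with a median of -0.16. TECR, the reductase that completes each elongation cycle, measured 133.1, 136.4 and 133.4 FPKM in the OV-BRCA1 samples and 210.2, 213.5 and 206.1 in the NC samples. It fell by 0.64 with no overlap (adjusted p = 1.07e-04), the opposite direction to the elongase ELOVL6. ACSL4, which activates polyunsaturated fatty acids, rose by 0.76 (59.1 ± 1.14 against 34.5 ± 0.930 FPKM, adjusted p = 1.20e-04). ACSS2, which makes acetyl-CoA from acetate, fell by 0.60 (26.02 ± 2.09 against 40.0 ± 1.15 FPKM, adjusted p = 0.00134), but over its protein-coding transcripts only the value was 0.23 (adjusted p = 0.808, range over the alternatives 0.00118 to 0.808).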

How the data were processed

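The authors deposited FPKM for 199167 transcripts in 6 samples. According to the submitters' processing notes, reads passed FastQC and were aligned to hg38 with HISAT2. The quantification tool and the use of strand are not given in the sources used here. Transcripts were named by GENCODE 29 (198868 matched), and FPKM were summed per gene. The 16321 genes that reached 0.5 FPKM in 3 or more samples were tested as log2(FPKM + 1), a pseudocount of 1, with limma 3.58.1 (trend, not robust) in R 4.3.3, and p-values were adjusted by Benjamini-Hochberg over all genes tested. The procedure was first tested on simulated data. The study's own test, which needs counts, cannot be repeated on FPKM. The members and lists were chosen with earlier results of these data known. Values in every sample are given for BRCA1, the 5 regulators and the arm members with an adjusted p below 0.05 and a log2 fold change of at least 0.4 in size. In the other lists up to 3 called genes with the smallest adjusted p are named, with CH25H, ABCA1 and MYLIP and the reference genes GAPDH, ACTB and TBP, and further genes, ACACA's sample values and the single transcripts were chosen after their values were seen. Alternatives were another pseudocount, no filter, 2 other scalings, a replicate block, the most abundant transcript, protein-coding transcripts only and leaving out each sample. Removal of a GC content and length trend by loess and the fit of single transcripts were added after seeing the data. GC content and length were those of the most abundant transcript.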

Additional observations from a re-analysis of the deposited data

How the results depend on the processing

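Of 990 values of 71 named genes under 14 alternatives, 909 kept their direction and their side of the threshold, 70 lost the call, 5 gained one and 6 reversed, and 37 genes kept their result in every alternative that gave them a value. Those included BRCA1 (0.80 to 1.13) and SCD (-1.13 to -1.05). With the most abundant transcript alone, SREBF2 was at 0.01, ACSS2 at 0.33, ACTB at -1.70 and DHCR7 at 0.37. With protein-coding transcripts only, ACSS2 was at 0.23 and LSS at 0.09. TM7SF2 gave no value with the most abundant transcript, which did not pass the filter, nor did KRT6A without any 1 OV-BRCA1 sample, where it did not pass either. The cause was not tested.

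With the most abundant transcript, 1685 genes were higher and 1606 lower, the sterol arm had 5 lower, the fatty acid arm 0 higher in limma (2 higher at an unadjusted p below 0.05) and the regulators 1 lower, and the medians were -0.28 for the fatty acid arm and -1.16 for the regulators. With protein-coding transcripts only, 1589 genes were lower, 109 of them past 1, with 5 sterol members and 1 regulator lower, and the medians were -0.12 (sterol), -0.01 (fatty acid) and -0.02 (regulators). A pseudocount of 0.1 gave 764 genes higher and 516 lower past 1. Scaling by the median of ratios gave medians of -0.21 (sterol) and -0.27 (regulators), and by the nuclear protein-coding total -0.28 and -0.35. With the GC content and length trend removed, chosen after seeing the data, 111 genes were lower past 1, and the medians were -0.29, -0.07 and -0.21 for the sterol arm, the fatty acid arm and the regulators. Without any single replicate the sterol arm had 1 gene higher (1 to 1). Over all genes those fits gave 1906 to 2174 higher, against 2674 with all samples. The cause was not tested.

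The sources used here do not say whether samples of equal number were paired. Correlations of their deviations were -0.024, 0.025 and 0.014, within the range for samples of unequal number (-0.046 to 0.032). With a replicate block the sterol arm had 1 gene higher, and the fatty acid arm 2 higher and 3 lower. Over all genes the block gave 2159 higher and 2436 lower, against 2674 and 3090 without it.

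Limits: 3 samples per group from 1 line, depth estimated here from FPKM, no counts in the expression files, and transcript splits that rest on an unnamed tool. Exon bases shared with a gene on the opposite strand occur in 15 members, and CYP51A1, TM7SF2, FADS1 and FADS2 share some on the same strand.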

Other observations

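Of 26 genes of fatty acid oxidation 21 passed the filter. Of these 11 fell (18.9% of all genes tested), 10 were not called and limma called 0 higher (16.4% of all genes; 1 at an unadjusted p below 0.05), with a median of -0.28 and 3 values above 0. ACADVL, the dehydrogenase of very long chains, measured 109.1, 107.9 and 113.7 FPKM in the OV-BRCA1 samples and 149.4, 149.6 and 152.6 in the NC samples. It fell by 0.45 with no overlap (adjusted p = 5.69e-04). HADHB, a subunit of the mitochondrial trifunctional protein, fell by 0.49 (51.2 ± 2.18 against 72.0 ± 1.17 FPKM, SD, n = 3, limma adjusted p = 8.48e-04). ETFB, a subunit of the electron carrier that serves the acyl-CoA dehydrogenases, fell by 0.84 (16.6 ± 0.872 against 30.4 ± 3.25 FPKM, adjusted p = 0.00104), and ETFDH, which takes up its electrons, by 0.78 (3.21 ± 0.393 against 6.21 ± 0.342 FPKM, adjusted p = 0.00165). CPT1B, a carnitine palmitoyltransferase, fell by 0.86, ACADS, the dehydrogenase of short chains, by 0.80 and ECI1, an enoyl-CoA isomerase, by 0.69. ETFDH, CPT1B, ACADS and ECI1 were named after their values were seen. Over protein-coding transcripts only ACADVL (-0.38) and CPT1B (-0.97) were not called, nor with the most abundant transcript alone were CPT1B (-0.99), ECI1 (-1.82) and ETFDH (-0.62).

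In glycerolipid synthesis GPAT3, a glycerol-phosphate acyltransferase, rose by 0.95 (3.51 ± 0.288 against 1.34 ± 0.256 FPKM, adjusted p = 0.00141), while DGAT2, which makes triglycerides, fell by 0.93 (1.31 ± 0.502 against 3.33 ± 0.174 FPKM, adjusted p = 0.00694). Both genes were named after their values were seen.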
